A study of Drosophila melanogaster with 10 samples.

Results

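The maltase genes of Drosophila melanogaster were described here in the midgut of adult males. The family was taken as every gene whose symbol begins with Mal-A or Mal-B in the deposited gene table, which gave 10 of the 14310 genes listed, 8 Mal-A and 2 Mal-B genes. RNA was sequenced from 10 libraries, 5 biological replicates of dHNF4 RNAi midguts and 5 of control midguts, each from the pooled RNA of 20 midguts. In the dHNF4 RNAi males the driver mex-GAL4, active in enterocytes, the absorptive cells of the gut, was heterozygous. These males were otherwise w/Y and had 1 copy of the transgene UAS-dHNF4 RNAi NIG9310-R2, a construct against the nuclear receptor gene Hnf4. Control males were w1118/Y with 1 copy of the same transgene and no driver, so all 10 libraries carry the construct and only dHNF4 RNAi libraries carry the driver. Both groups ate yeast alone at 25 °C, with 12 h of light and 12 h of dark, and were dissected on day 7 after eclosion. The genotype as written places the driver on the second chromosome, which also holds all 10 maltase genes, and effects of that chromosome, of the driver and of the knockdown cannot be told apart.

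Maltases are alpha-glucosidases that release glucose from maltose and from the short glucose chains that amylase leaves of starch. In the fly gut they are enzymes of enterocytes, secreted or held at the apical membrane, and their product enters the cell through sugar transporters. The first Mal-A genes to be described in the fly were named for larval visceral proteins. HNF4 is a nuclear receptor known in flies and mammals for control of metabolic genes in the gut, the fat body and the liver.

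The Mal-A genes lie side by side on chromosome 2R in BDGP6.54, from 8449664 to 8473961, a span of 24.3 kb. In map order, Mal-A1 (FBgn0002570) lies at 8449664 to 8451904 on the minus strand and Mal-A2 (FBgn0002569) at 8453627 to 8455782 on the plus strand. Mal-A3 (FBgn0002571) lies at 8455909 to 8457892 on the minus strand and Mal-A4 (FBgn0033294) at 8458815 to 8460884 on the plus strand. Mal-A5 (FBgn0050359) at 8462753 to 8465092 and Mal-A6 (FBgn0050360) at 8465158 to 8467595 share the plus strand. Mal-A7 (FBgn0033296) lies at 8468646 to 8471663 on the minus strand and Mal-A8 (FBgn0033297) at 8471954 to 8473961 on the plus strand. The Mal-B genes lie on chromosome 2L on the plus strand, Mal-B1 (FBgn0032381) at 11847226 to 11849169 and Mal-B2 (FBgn0032382) at 11849958 to 11852881. Both Mal-B genes sit inside the span of Pde1c, a phosphodiesterase gene of the opposite strand, and share no exon bases with it. Mal-A1 shares 82 exon bases with Cyp4e1 and Mal-A8 shares 6 with mtt, in each case on opposite strands. The libraries are stranded per the labels, but whether the authors' counting used the strand is not given in the sources used here.

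Values are TPM, the share of a library's transcripts scaled to a fixed sum, which are corrected for transcript length and so allow levels of different genes to be compared. How many reads stand behind a value is unknown, since TPM hold no record of it. Levels are mean ± SD over the 5 libraries of a group. Each log2 fold change was computed on log2(TPM + 1) and comes with limma's standard error and its Benjamini-Hochberg adjusted p over the 8784 genes that averaged at least 1 TPM. A gene was called at an adjusted p under 0.05, and fold values without a logarithm are ratios of mean TPM. All 10 maltase genes passed the filter on low values.

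Several facts of the whole series touch every value below. Hnf4 itself was at 45.6 ± 2.38 TPM in the libraries labelled dHNF4 RNAi and at 38.8 ± 4.92 TPM in control libraries, so TPM show no decrease of the targeted gene (log2 fold change 0.24, adjusted p = 0.0199). Median-of-ratios scaling, which sets the typical gene equal between libraries, turned this value to -0.35 (adjusted p = 0.000815). On the TPM scale 16.3% of genes tested were lower in dHNF4 RNAi and 66.9% were higher, with a median log2 fold change of 0.55. After that scaling 35.8% were lower and 35.6% higher, with a median of 0.01, and values so scaled are given beside the TPM where they change the call of a maltase gene or a count. The summed TPM of 9 enterocyte markers were 4504 to 4897 TPM in dHNF4 RNAi and 2587 to 3331 TPM in control libraries, and 6 of them rose and 2 fell. After median-of-ratios scaling the sums were 3664 to 4006 in dHNF4 RNAi and 3402 to 3654 in control libraries, and 5 rose and 3 fell. Summed markers of progenitor cells stood at 203 to 244 TPM in dHNF4 RNAi and 26.3 to 57.9 TPM in controls, with 9 of 9 higher, and 8 of 9 after that scaling. Fat body tissue can stay attached to dissected guts, and its summed markers stood at 137 to 173 TPM in dHNF4 RNAi and 243 to 375 TPM in controls. Of these 11 markers 7 were under a mean of 1 TPM, the 4 tested fell, and no marker of these 3 lists was at 0 in all libraries. The Malpighian tubule joins the gut at the end of the midgut. Its summed markers overlapped between groups on the TPM scale, at 152 to 236 TPM in dHNF4 RNAi and 163 to 244 TPM in controls, and 1 of 5 fell. After median-of-ratios scaling these sums did not overlap, at 124 to 192 in dHNF4 RNAi and 213 to 295 in control libraries, and 3 fell. The part of these cell types in the maltase values was not tested.

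Of the 10 maltase genes, 8 fell in dHNF4 RNAi midguts, none rose and 2 did not pass the test. They were Mal-A1, Mal-A2, Mal-A3, Mal-A4, Mal-A6, Mal-A7, Mal-A8 and Mal-B2. The median log2 fold change of the 10 genes was -1.41, beside 0.55 for all genes tested. At least 2-fold decreases were called in 7 of them, and in 4.68% of all genes tested. The same 7 Mal-A genes had every dHNF4 RNAi library below every control library, which held for 11.7% of all genes tested. After median-of-ratios scaling 9 maltase genes fell, none rose and Mal-B1 did not pass. In bulk tissue, fewer cells that express a gene and less RNA per cell cannot be told apart. Close gene copies share reads, so the division of the family total among them is less certain than the total.

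**Figure D1:**
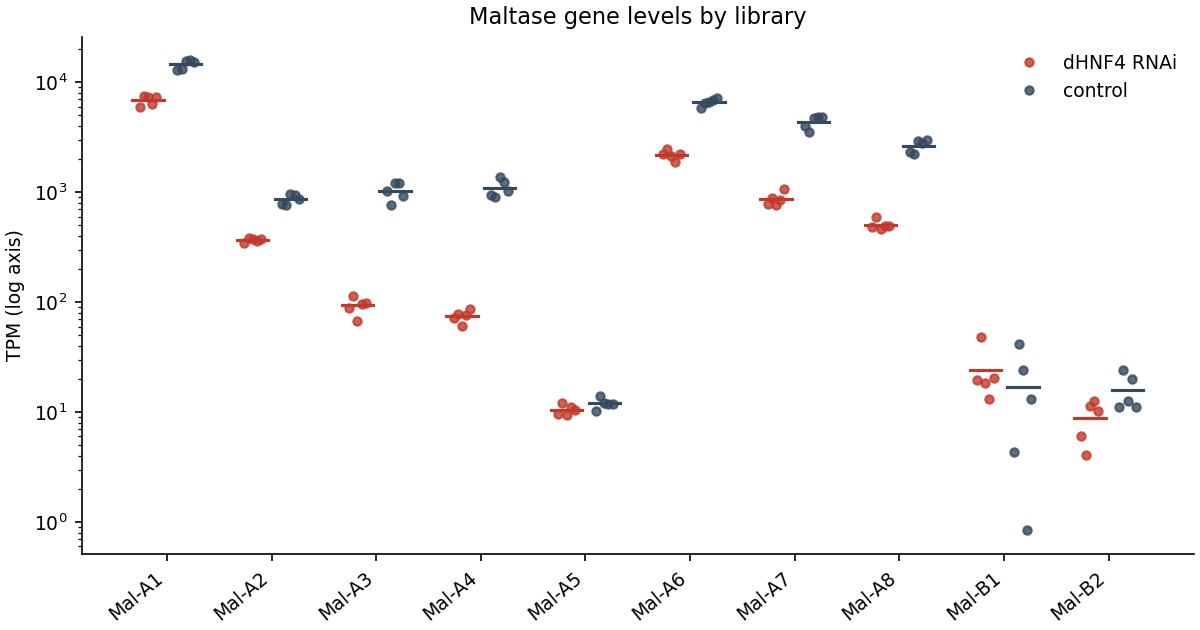
TPM of each maltase gene in each library, on a log axis, with dHNF4 RNAi left of control for every gene; points are libraries and bars are group means. The groups are apart in 7 Mal-A genes and overlap in Mal-A5, Mal-B1 and Mal-B2.

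Mal-A1 and Mal-A6 were the most abundant maltase transcripts, and Mal-A1 had the smallest decrease among the 7 genes that averaged at least 100 TPM. Mal-A1 was at 5986, 7439, 7351, 6396 and 7268 TPM in dHNF4 RNAi replicates 1 to 5, against 12797, 13092, 15509.7, 15823 and 15186 TPM in control replicates 1 to 5. Every dHNF4 RNAi library was below every control, and the lower controls were replicates 1 and 2. The means were 6888 ± 655 TPM in dHNF4 RNAi and 14481 ± 1425 TPM in control, a 2.1-fold decrease (log2 fold change -1.07, SE 0.089, adjusted p = 5.56e-07). By mean TPM, Mal-A1 ranked 14 among all genes in dHNF4 RNAi and 6 in control midguts. Its size of decrease depended on the scaling, at -1.67 after median-of-ratios scaling and -0.64 after quantile normalization, and the call held in both.

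Mal-A6 was at 2219.9, 2484, 2120, 1871 and 2240.1 TPM in dHNF4 RNAi libraries, against 5868, 6397, 6608, 6848 and 7232 TPM in controls. The groups stood well apart, with the highest dHNF4 RNAi library under the lowest control. Its means of 2187 ± 222 TPM in dHNF4 RNAi and 6591 ± 509 TPM in control differed 3.01-fold (log2 fold change -1.59, SE 0.083, adjusted p = 2.95e-08). Mal-A6 ranked 82 among all genes in dHNF4 RNAi and 20 in control midguts.

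The divergent neighbours Mal-A7 and Mal-A8 fell about 5-fold each. Mal-A7 was at 777, 890.2, 761, 856 and 1057 TPM in dHNF4 RNAi libraries, against 3978, 3494, 4718, 4849 and 4870.2 TPM in controls. Control replicate 2 was the lowest control, still far above every dHNF4 RNAi library. The means were 868 ± 119 TPM in dHNF4 RNAi and 4382 ± 617 TPM in control, a 5.05-fold decrease (log2 fold change -2.33, SE 0.12, adjusted p = 2.43e-08).

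Mal-A8 was at 478, 589, 465, 488 and 491 TPM in dHNF4 RNAi libraries, against 2297, 2223, 2890, 2788 and 2961 TPM in controls. Its dHNF4 RNAi replicate 2 lay above the other 4, which were tightly grouped, and the groups did not overlap. The means were 502 ± 49.5 TPM in dHNF4 RNAi and 2632 ± 346 TPM in control, 5.24-fold lower (log2 fold change -2.38, SE 0.099, adjusted p = 7.61e-09).

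Mal-A3 and Mal-A4, also divergent neighbours, had the steepest decreases of the family. Mal-A3 was at 88.4, 114, 67.8, 97.1 and 98.8 TPM in dHNF4 RNAi libraries, against 1025, 756, 1223, 1200.2 and 929.9 TPM in controls. It was the most variable of the 7 abundant genes in relative terms, with an SD of 18.2% of the mean in dHNF4 RNAi and 18.9% in control, and the groups remained far apart. The means were 93.2 ± 17.0 TPM in dHNF4 RNAi and 1027 ± 195 TPM in control, 11.0-fold lower (log2 fold change -3.45, SE 0.16, adjusted p = 1.28e-08). Of the 8784 genes tested, 40 had a more negative log2 fold change.

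Mal-A4 was at 72.1, 77.4, 60.9, 77.1 and 87.4 TPM in dHNF4 RNAi libraries, against 949.5, 906, 1371, 1236 and 1032 TPM in controls. The lowest control was above the highest dHNF4 RNAi library by far. The means were 75.0 ± 9.63 TPM in dHNF4 RNAi and 1099 ± 198 TPM in control, 14.7-fold lower (log2 fold change -3.85, SE 0.13, adjusted p = 1.79e-09), and 26 genes had a more negative value.

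Mal-A2, which is divergent to Mal-A1, fell to a similar degree as Mal-A1 at a much lower level. It was at 342, 386, 377, 357 and 373 TPM in dHNF4 RNAi libraries, against 778, 762, 952, 945 and 862 TPM in controls. The dHNF4 RNAi libraries were close to each other and all below the controls. The means were 367 ± 17.4 TPM in dHNF4 RNAi and 859.8 ± 89.1 TPM in control, 2.34-fold lower (log2 fold change -1.22, SE 0.075, adjusted p = 8.13e-08).

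Mal-A5 stood apart from the other Mal-A genes, with a low level in both groups and no call. It was at 9.59, 12.1, 9.4, 11.1 and 10.5 TPM in dHNF4 RNAi libraries, against 10.2, 14.0, 12.2, 11.8 and 11.8 TPM in controls. The groups overlapped. The means were 10.5 ± 1.12 TPM in dHNF4 RNAi and 12.0 ± 1.37 TPM in control (log2 fold change -0.17, SE 0.09, adjusted p = 0.1). After median-of-ratios scaling it was called lower, at -0.72 with adjusted p = 7.98e-06, and without control replicate 1 or dHNF4 RNAi replicate 2 it was called at -0.22 in both cases (adjusted p = 0.0345 and 0.0452). Its annotation has 3 transcripts of 5 to 7 exons, while the neighbour Mal-A6, on the same strand 65 bp away, has 3 exons in each of its 2 transcripts.

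**Figure D2:**
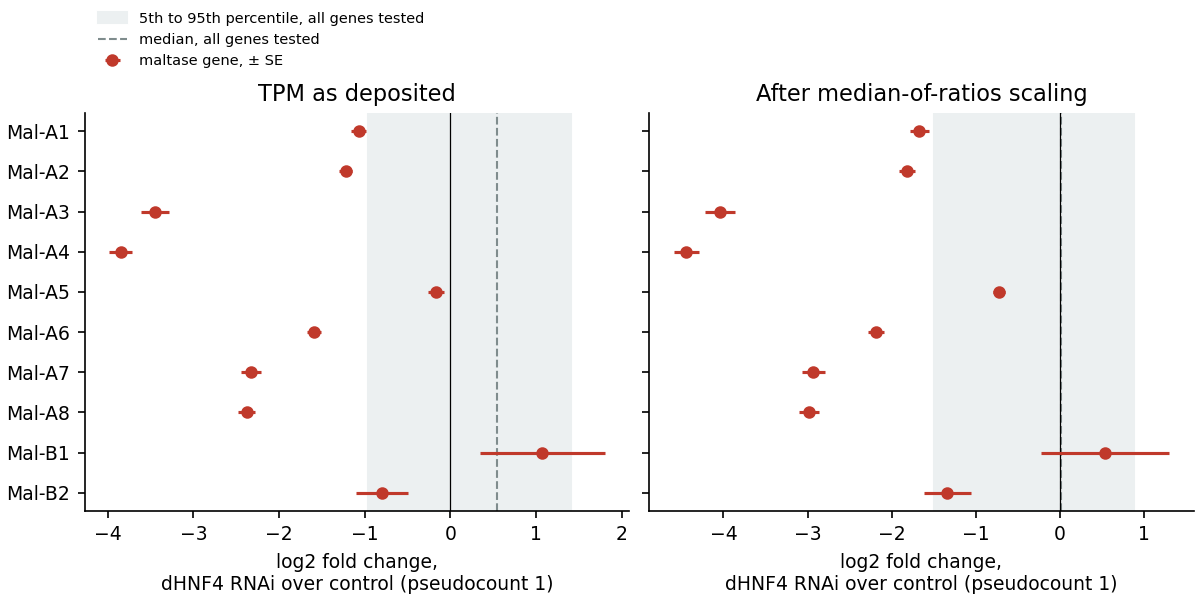
Log2 fold change of each maltase gene, dHNF4 RNAi over control, with its standard error, from TPM as deposited (left) and after median-of-ratios scaling (right). The shaded band holds the 5th to 95th percentile of all genes tested and the dashed line their median, 0.55 on the left and 0.01 on the right; 7 Mal-A genes lie left of the band in both panels.

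The Mal-B genes were low and varied widely between libraries of the same group. Mal-B1 was at 19.7, 48.2, 18.5, 13.2 and 20.6 TPM in dHNF4 RNAi libraries, against 4.35, 41.6, 23.9, 0.846 and 13.2 TPM in controls. Replicate 2 was the highest library in both groups, control replicate 4 was nearly without the transcript, and the groups overlapped. The means were 24.1 ± 13.8 TPM in dHNF4 RNAi and 16.8 ± 16.5 TPM in control, with a log2 fold change of 1.07 that did not pass the test (SE 0.73, adjusted p = 0.192). Single libraries moved this value, which was 0.44 without control replicate 4 (adjusted p = 0.472) and 1.57 without control replicate 2 (adjusted p = 0.0519). Median-of-ratios scaling gave 0.54 (adjusted p = 0.544), and with control replicate 4 also left out the sign turned, to -0.13 (adjusted p = 0.843).

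Mal-B2 was at 6.06, 4.06, 11.4, 12.7 and 10.3 TPM in dHNF4 RNAi libraries, against 11.2, 24.3, 12.6, 20.0 and 11.1 TPM in controls. Replicates 1 and 2 were the low dHNF4 RNAi libraries and replicates 2 and 4 the high controls, and the other libraries of both groups lay together. The means were 8.89 ± 3.67 TPM in dHNF4 RNAi and 15.8 ± 5.95 TPM in control, a called decrease (log2 fold change -0.80, SE 0.3, adjusted p = 0.0277). On the TPM scale the call rested on these 4 libraries. Leaving out control replicate 2 gave -0.63 (adjusted p = 0.0714), and leaving out control replicate 4 gave -0.70 (adjusted p = 0.0632). Without dHNF4 RNAi replicate 1 the value was -0.70 (adjusted p = 0.0662), and without dHNF4 RNAi replicate 2 it was -0.58 (adjusted p = 0.062). After median-of-ratios scaling Mal-B2 was called at -1.34 (adjusted p = 0.00133). With 1 library also left out it stayed called, at -1.47 to -1.12 (adjusted p from 0.00102 to 0.00432).

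The order of levels differed between the groups in the middle of the family. In dHNF4 RNAi midguts it ran Mal-A1, Mal-A6, Mal-A7, Mal-A8, Mal-A2, Mal-A3, Mal-A4, Mal-B1, Mal-A5 and Mal-B2 by mean TPM. Neighbours in that order overlapped in their libraries for Mal-A3 with Mal-A4 and for Mal-A5 with Mal-B2. In control midguts the order was Mal-A1, Mal-A6, Mal-A7, Mal-A8, Mal-A4, Mal-A3, Mal-A2, Mal-B1, Mal-B2 and Mal-A5. There the libraries of Mal-A4, Mal-A3 and Mal-A2 overlapped, as did those of Mal-B1, Mal-B2 and Mal-A5. Mal-A2 was thus above both Mal-A3 and Mal-A4 in every dHNF4 RNAi library and had means below theirs in control.

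The summed TPM of the family were 9998, 12044, 11242, 10179 and 11657 in dHNF4 RNAi libraries, against 27719.6, 27709, 33321, 33721 and 33109 in controls. This is a sum over the members and carries no test. The family took 1.13% ± 0.0924 of a library in dHNF4 RNAi and 3.18% ± 0.315 in control, a ratio of 0.354. The ratio was 0.233 after median-of-ratios scaling. Per summed enterocyte marker TPM the family stood at 2.34 ± 0.171 in dHNF4 RNAi libraries and 11.1 ± 1.7 in control libraries. The decrease was thus larger, 4.75-fold, on that base. Of the 9 markers in the sum 6 rose, 2 fell and 1 was not called on the TPM scale, so this size depends on the markers chosen.

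The make-up of the total shifted towards Mal-A1. Shares within the family do not change when a library is multiplied by a single factor, as in median-of-ratios scaling. Mal-A1 made up 62.4% ± 1.99 of the family total in dHNF4 RNAi and 46.5% ± 0.557 in control, with no overlap. Mal-A6 held 19.9% ± 1.56 in dHNF4 RNAi and 21.2% ± 1.29 in control, and its ranges overlapped. The shares of Mal-A7, at 7.88% ± 0.892 in dHNF4 RNAi and 14.0% ± 0.825 in control, and of Mal-A8, at 4.56% ± 0.356 in dHNF4 RNAi and 8.44% ± 0.365 in control, were lower in every dHNF4 RNAi library. Mal-A3 held 0.847% ± 0.144 in dHNF4 RNAi and 3.29% ± 0.483 in control. The share of Mal-A4 was 0.683% ± 0.0908 in dHNF4 RNAi and 3.52% ± 0.391 in control. Mal-A2 went the other way, with 3.34% ± 0.135 in dHNF4 RNAi and 2.76% ± 0.0969 in control.

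**Figure D3:**
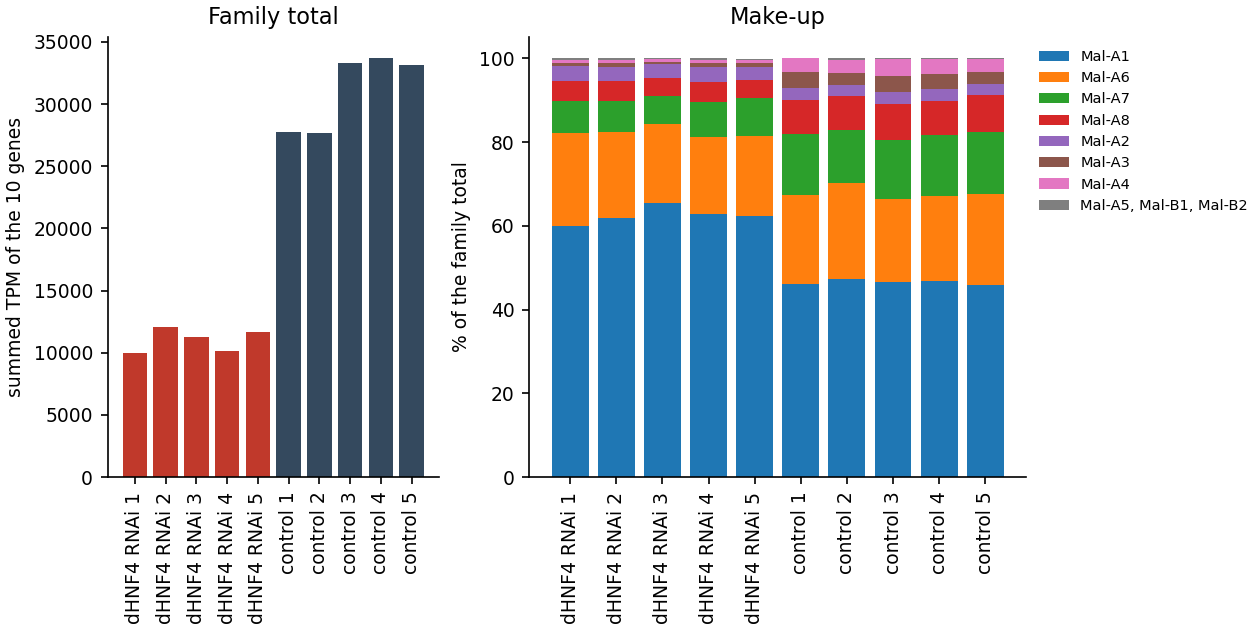
Summed TPM of the 10 maltase genes in each library (left) and the share of each gene in that sum in percent (right). Every dHNF4 RNAi total, 9998 to 12044 TPM, lies below every control total, 27709 to 33721 TPM, and the Mal-A1 share is larger in every dHNF4 RNAi library.

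Among the 7 genes that averaged at least 100 TPM, genes that start next to each other on opposite strands had fold changes closer to each other than most other pairs. This pattern was noticed after the values were seen and is given as a description with no test. Log2 ratios between 2 genes of 1 library do not change with a single factor per library. The log2 ratio of Mal-A7 to Mal-A8, whose starts are 290 bp apart, was 0.60 to 1.11 in dHNF4 RNAi and 0.65 to 0.80 in control libraries, a difference of the means of 0.05. For Mal-A1 to Mal-A2, 1722 bp apart, it was 4.13 to 4.28 in dHNF4 RNAi and 4.03 to 4.14 in control, a difference of 0.15. For Mal-A3 to Mal-A4, 922 bp apart, it was 0.15 to 0.56 in dHNF4 RNAi and -0.26 to 0.11 in control, a difference of 0.40. In the other 18 pairs of these genes the mean ratio differed between groups by 0.37 to 2.79 on the log2 scale. Mal-A2 and Mal-A3, whose ends are only 126 bp apart, had a difference of 2.24, and Mal-A6 and Mal-A7, end to end across 1050 bp, had 0.74. Quantile normalization, which moves genes unequally, weakened the pattern. There the log2 fold changes differed by 0.28 for Mal-A7 and Mal-A8, 0.46 for Mal-A3 and Mal-A4 and 0.53 for Mal-A1 and Mal-A2, while Mal-A2 and Mal-A6, which are not neighbours, differed by 0.22.

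**Figure D4:**
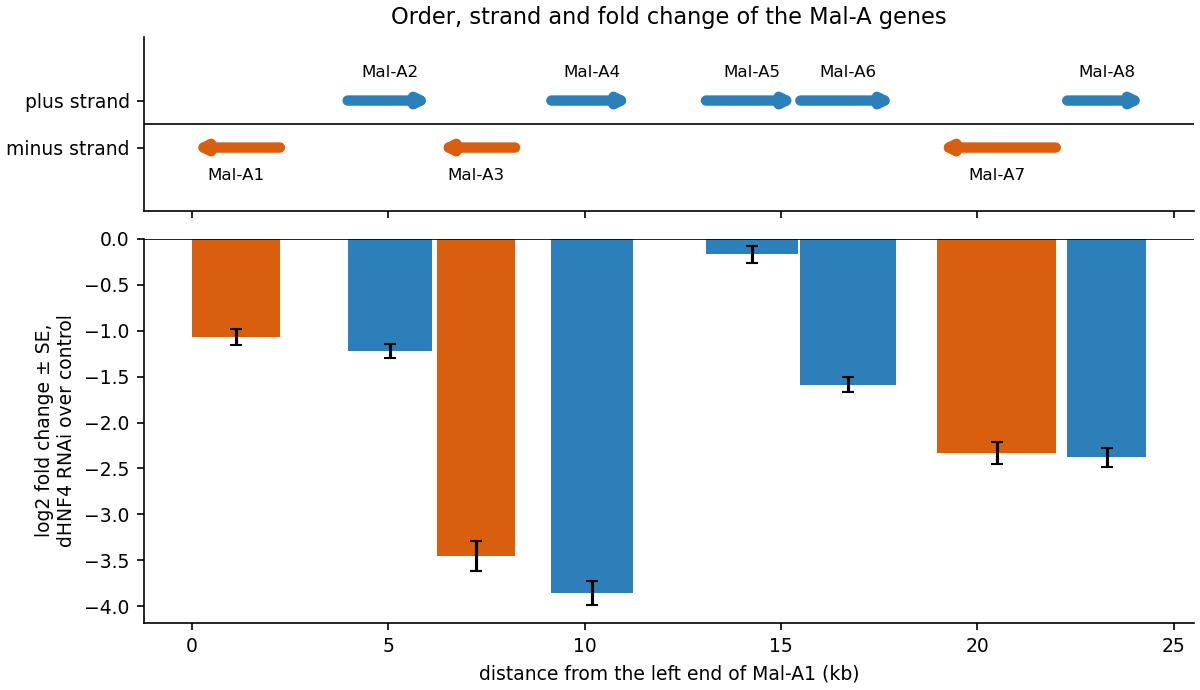
The 8 Mal-A genes to scale, as distance from the left end of Mal-A1 in kb, with arrows for strand (top) and their log2 fold change, dHNF4 RNAi over control, with standard error (bottom). The pairs that start next to each other, Mal-A1 with Mal-A2, Mal-A3 with Mal-A4 and Mal-A7 with Mal-A8, have log2 fold changes of -1.07 and -1.22, -3.45 and -3.85, and -2.33 and -2.38, and Mal-A5 is at -0.17.

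The neighbouring genes of both clusters were taken as those that overlap or lie between the members and the 5 nearest protein-coding genes on each side. Of all genes tested, 16.3% were lower and 66.9% higher on the TPM scale. After median-of-ratios scaling 35.8% of all genes tested were lower and 35.6% higher. Around the Mal-A genes 7 of 12 neighbours were tested, of which 5 fell, with values of -1.23 for mtt, -0.88 for Cyp4e1, -0.88 for Cyp4ad1, -0.80 for Cyp4e2 and -0.69 for CG12780. CG12780, the most abundant of them, averaged 869 ± 102 TPM in dHNF4 RNAi and 1397 ± 135 TPM in control. Cyp6a13 rose by 0.32 on the log2 scale (adjusted p = 0.00299), which median-of-ratios scaling turned to a decrease of -0.27. After that scaling all 7 were called lower, Cyp6a14 among them at -0.51. With the pseudocount of 1, the values of these neighbours reached -1.23 at the lowest, for mtt, while 5 of the 8 Mal-A genes were lower than that. The level of mtt was low, at 1.69 ± 0.27 TPM in dHNF4 RNAi and 5.34 ± 0.803 TPM in control. This pseudocount makes the change of such a gene look smaller, so its place beside the Mal-A genes may depend on it. Around the Mal-B genes 7 of 11 neighbours were tested, of which 4 rose and 1 fell, near the shares over all genes. After median-of-ratios scaling 1 of them rose and 5 fell. Pde1c, which contains both Mal-B genes, was at 37.1 ± 3.13 TPM in dHNF4 RNAi and 19.0 ± 3.46 TPM in control (log2 fold change 0.94, adjusted p = 7.04e-06), opposite in sign to Mal-B2. CG14933 fell by 1.13 on the log2 scale (adjusted p = 0.0137). Its dHNF4 RNAi replicate 5, at 6.22 TPM, lay far below the other dHNF4 RNAi libraries, at 25.7 to 39.0 TPM, and weighed on that value. Controls were at 44.5 to 53.5 TPM.

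Most other enzymes of carbohydrate digestion were also lower in dHNF4 RNAi. All 16 genes of a list of amylases, mannosidases and other glycosidases were tested, and 14 fell and 1 rose, with a median log2 fold change of -1.54. Over all genes tested 16.3% fell and 66.9% rose, with a median of 0.55. After median-of-ratios scaling 15 of the list fell and none rose, where 35.8% of all genes fell and 35.6% rose. Gal, a beta-galactosidase, was at 2.32 ± 0.0676 TPM in dHNF4 RNAi and 319.7 ± 71.3 TPM in control (-6.56, adjusted p = 4.61e-11). Amylase makes the substrate of the maltases, and the amylase gene Amy-d was at 1233 ± 244 TPM in dHNF4 RNAi and 5156 ± 694 TPM in control (-2.07, adjusted p = 1.08e-07). The more abundant amylase gene Amy-p fell less, from 18269 ± 1384 TPM in control to 8595 ± 1389 TPM in dHNF4 RNAi (-1.1, adjusted p = 1.81e-06). The amylase-related Amyrel (-1.85) and the alpha-mannosidase LManVI (-3.58) also fell, with adjusted p of 2.9e-07 and 3.28e-07. The gene that rose was Gba1a, for a glucocerebrosidase, at 0.75, which median-of-ratios scaling moved to 0.15 (adjusted p = 0.392). CD98hc, a transporter subunit with a maltase-like outer domain, was at 70.7 ± 3.87 TPM in dHNF4 RNAi and 96.6 ± 4.59 TPM in control, a decrease of -0.44 (adjusted p = 1.81e-05).

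Genes that act after the maltases were called in both directions. Of 15 sugar transporter genes tested out of 20 named, 6 fell, 1 rose and 8 did not pass, with a median log2 fold change of 0.11. Of all genes tested 16.3% fell and 66.9% rose, with a median of 0.55. After median-of-ratios scaling 7 transporter genes fell and 1 rose, beside 35.8% and 35.6% of all genes. The transporter gene CG1208 was at 69.2 ± 8.2 TPM in dHNF4 RNAi and 349 ± 34.2 TPM in control (-2.32, adjusted p = 6.09e-09), and sut3 (-0.78) and sut2 (-0.60) fell as well. The level of sut3 was near the filter of 1 TPM, at 0.655 ± 0.186 TPM in dHNF4 RNAi and 1.82 ± 0.205 TPM in control. CG4797 was the transporter gene that rose, at 28.1 ± 4.88 TPM in dHNF4 RNAi and 11.1 ± 4.13 TPM in control (1.32, adjusted p = 7.24e-05).

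Of 12 genes for the first steps of sugar use inside the cell, 6 rose and none fell (median 0.07). Among all genes 66.9% rose, with a median of 0.55. After median-of-ratios scaling none of the 12 rose and 8 fell, where 35.6% of all genes rose and 35.8% fell. Hex-A, a hexokinase, was at 316 ± 93.3 TPM in dHNF4 RNAi and 154 ± 21.2 TPM in control (1.00, adjusted p = 0.000282), and after that scaling at 0.40 (adjusted p = 0.0704). GlyP (0.52) and GlyS (0.34), which act on glycogen, rose on the TPM scale, and that scaling moved GlyP to -0.07 and GlyS to -0.25.

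Among 13 regulators of sugar metabolism tested, 9 rose and 2 fell (median 0.35), near the shares over all genes of 66.9% higher and 16.3% lower. After median-of-ratios scaling 3 rose and 8 fell, where 35.6% of all genes rose and 35.8% fell. The transcription factor gene sug was at 30.9 ± 7.84 TPM in dHNF4 RNAi and 81.2 ± 31.1 TPM in control (-1.33, adjusted p = 0.00034), and fell under both scalings. Of genes linked to TGF-beta and activin signalling, Smox rose by 0.86 and babo by 0.56 on the log2 scale, while the activin-type ligand gene daw fell (-0.88, adjusted p = 0.00427), also after that scaling (-1.32). The increase of cbt, a target of sugar sensing, was 0.95. After that scaling Smox stood at 0.27 and cbt at 0.36, both still called, and babo at -0.01 (adjusted p = 0.883).

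The genes with profiles most like the maltases were found over 7042 genes that averaged at least 5 TPM. The measure was the root-mean-square difference of log2(TPM + 1) over the 10 libraries, after each gene was centred on its mean. For the summed family the nearest were CG4363 (0.10), CG13315 (0.10), Agpat2 (0.13), Cyp6t1 (0.13) and Agpat3 (0.14). The nearest to Mal-A1 was RpS29 (0.11), to Mal-A2 CG32483 (0.11), to Mal-A6 CG13315 (0.10), to Mal-A7 GstE8 (0.16) and to Mal-A8 CG18493 (0.12). The steeper genes had more distant matches, CG3841 (0.24) for Mal-A3 and Mipp1 (0.18) for Mal-A4. Mipp1, for an inositol polyphosphate phosphatase, was at 25.5 ± 1.21 TPM in dHNF4 RNAi and 360.3 ± 40.4 TPM in control.

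For the 3 low genes the nearest profiles were looked up after their values were seen. Mal-A5 was nearest to GstD7 (0.084), and Mal-B2 was nearest to BomS3 (0.17), Hn (0.21) and IM4 (0.21). BomS3 and IM4 encode immune-induced peptides and Hn an enzyme of phenylalanine breakdown. BomS3 was at 7.91, 8.11, 17.5, 18.6 and 16.3 TPM in dHNF4 RNAi libraries, against 14.1, 39.1, 18.7, 24.3 and 16.1 TPM in controls. Its low and high libraries were those of Mal-B2. The summed fat body markers were at 137, 161, 169.7, 165 and 173 TPM in dHNF4 RNAi libraries, against 309.6, 375, 361, 243 and 362 TPM in controls. They were high in control replicate 2, as Mal-B2 was, and lowest of the controls in replicate 4, where Mal-B2 was also high. Most of each sum came from the gene to, at 146 ± 12.9 TPM in dHNF4 RNAi and 302 ± 53.9 TPM in control. Of the other tested markers, Yp3 was also lowest of the controls in replicate 4, at 9.64 TPM, and Lsp2 was highest in control replicate 2, at 7.67 TPM. The marker apolpp was instead highest in control replicate 4, at 14.7 TPM, and lowest in dHNF4 RNAi replicate 2, at 1.87 TPM. The part of fat body tissue in the Mal-B2 value was not tested.

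Mal-B1 had no close match, the nearest being Est-6, for an esterase, at 0.75. Est-6 was at 13.7, 26.3, 15.5, 18.2 and 24.2 TPM in dHNF4 RNAi libraries, against 7.16, 34.1, 25.3, 5.06 and 33.5 TPM in controls. It shared with Mal-B1 the high value of replicate 2 in both groups and the low values of control replicates 1 and 4. The 2 genes differed in replicate 5, where Est-6 was nearly as high as in replicate 2 in both groups. Mal-B1 was there at 20.6 TPM in dHNF4 RNAi and 13.2 TPM in control, far below its replicate 2.

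**Figure D5:**
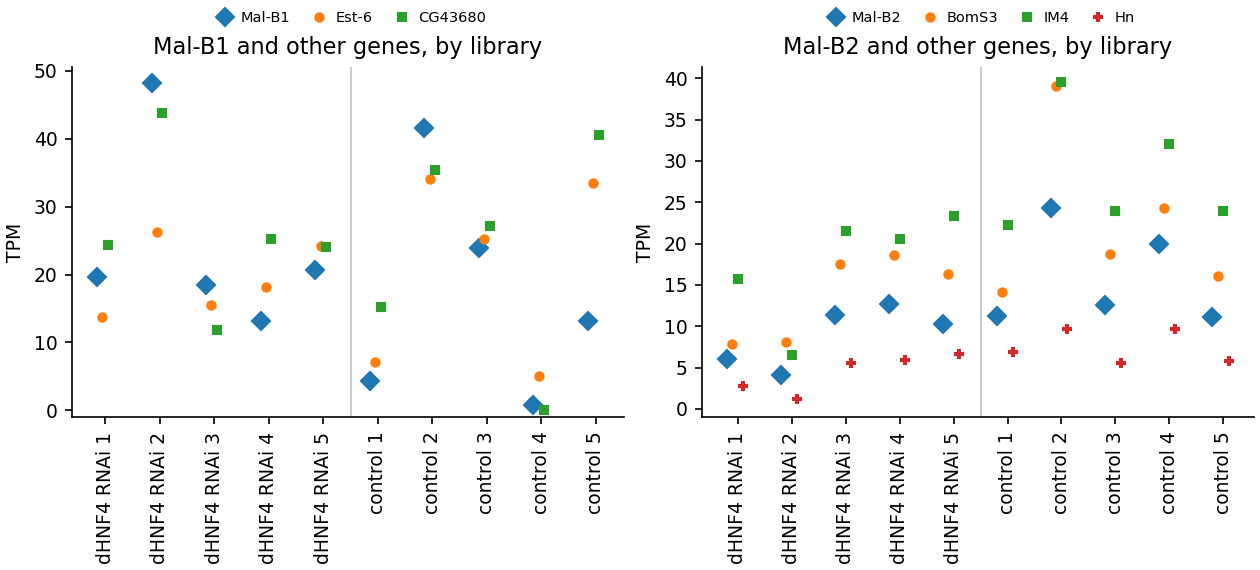
TPM of Mal-B1 with Est-6 and CG43680 (left) and of Mal-B2 with BomS3, IM4 and Hn (right) in each library, with dHNF4 RNAi libraries left of the grey line and control libraries right of it. Mal-B1 is highest in replicate 2 of both groups, at 48.2 and 41.6 TPM, and Mal-B2 is lowest in dHNF4 RNAi replicate 2, at 4.06 TPM, and highest in control replicate 2, at 24.3 TPM.

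In the authors' deposited table, which comes from their own comparison, 8 maltase genes were lower and none higher after adjustment of its p-values over 10494 genes, where 13.7% of all genes were lower. The authors' deposited table gave log2 fold changes of -1.31 for Mal-A1, -1.51 for Mal-A2, -3.53 for Mal-A3, -4.21 for Mal-A4, -1.98 for Mal-A6, -2.58 for Mal-A7 and -2.58 for Mal-A8. In the authors' deposited table Mal-A5 was at -0.473 (unadjusted p = 0.0848) and Mal-B2 at -1.7 (unadjusted p = 0.0034). Mal-B1 was at 0.0516 (unadjusted p = 0.963) in the authors' deposited table, where the TPM gave 1.07, or 0.54 after median-of-ratios scaling. The median was 0.13 over the 10494 genes of the authors' deposited table and 0.55 over the 8784 genes tested on the TPM scale. The 2 sets of log2 fold changes thus have different medians, and part of this gap may come from the genes included. The authors' deposited table does not state its direction, and the signs of its 8 lower maltase genes are those of dHNF4 RNAi over control in the TPM.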

How the data were processed

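RNA from the midguts of adult males was sequenced from stranded TruSeq libraries, per the labels' protocols, and groups and replicate numbers came from the sample labels. The authors deposited TPM per gene and library, with totals of 975327 to 982443. Per the submitters' processing notes edgeR, kallisto, Trim Galore and FastQC were used and the build was BDGP6, with neither roles nor versions, and RUVSeq stands in the deposited results' name. For each gene the authors deposited their own log2 fold change with its unadjusted p-value, and how these were fitted is not given in the sources used here. TPM hold no read numbers, so the depth is unknown and no counting interval was given. TPM are shares of a library, so when abundant transcripts fall the TPM of other genes go up.

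Coordinates came from annotation release 115 of the assembly BDGP6.54, which matched 14263 of the 14310 gene identifiers. The 8784 genes that averaged at least 1 TPM were tested on log2(TPM + 1), and this pseudocount of 1 makes the change of low genes look smaller. The test was limma 3.58.1 in R 4.3.3 (two-sided, moderated with a trend of variance on mean level, no covariate). The p-values cover the spread between pooled libraries. The comparison was tested on simulated data in which few genes changed and the typical gene did not shift. The simulation thus does not cover the choice of scaling.

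Named genes were all 10 maltases, up to 4 called members of each pathway list by smallest adjusted p, called neighbours that averaged at least 5 TPM, and the genes of nearest profile; 1 gene that the rule names is not reported here. The genes mtt, Cyp6a14, Amy-p, Gba1a, daw and the nearest profiles of the 3 low maltases were added after values were seen. Members and lists were chosen with earlier results of these data known. Each result was recomputed with a pseudocount of 0.1 or 5, with no filter or a filter at 5 TPM, median-of-ratios scaling, rescaling that left out mitochondrially encoded genes and the 20 most abundant, quantile normalization, other moderation, the replicate number as a block, and each library left out. Sequence identity and shared words between the maltase transcripts were not analysed here.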

Additional observations from a re-analysis of the deposited data

Results flagged for a closer look

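In 2 of the 20 sets of 5 libraries looked at, 1 maltase value lay far from the rest of its group by Dixon's test, and chance gives about 1 in 20. In dHNF4 RNAi replicate 2, Mal-A8 was at 589 TPM, while the other 4 dHNF4 RNAi libraries held 465 to 491 TPM. The gap to the nearest library was 0.79 of the group's range, beside a critical value of 0.71. Mal-B1 in the same library was at 48.2 TPM, with 13.2 to 20.6 TPM in the other 4, a gap of 0.788. That library also had the highest dHNF4 RNAi value in 5 of the 7 maltase genes that averaged at least 100 TPM.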

How the results depend on the processing

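Mal-A1, Mal-A2, Mal-A3, Mal-A4, Mal-A6, Mal-A7 and Mal-A8 stayed called lower in all 30 alternatives run, and Mal-B1 was called in none. The number of maltase genes called lower, 8, ranged from 7 to 9 (9 after median-of-ratios scaling), and none was called higher in any alternative. Mal-A5, not called at -0.17, passed after median-of-ratios scaling (-0.72, adjusted p = 7.98e-06), quantile normalization (-0.70, adjusted p = 8.04e-06) and rescaling that left out mitochondrially encoded genes and the 20 most abundant (-0.28, adjusted p = 0.00708). With 1 library left out it ranged from -0.22 to -0.12 (adjusted p from 0.0345 to 0.214). With median-of-ratios scaling as well, an alternative chosen after seeing the data, it passed without any 1 library, at -0.68, -0.76, -0.67, -0.74 and -0.72 without dHNF4 RNAi replicates 1 to 5 and -0.75, -0.71, -0.71, -0.73 and -0.71 without control replicates 1 to 5. Mal-B2 lost its call with no filter on low values (-0.80, adjusted p = 0.0727). On the TPM scale it ranged from -0.94 to -0.58 with 1 library left out (adjusted p from 0.0148 to 0.0714). With median-of-ratios scaling as well it kept its call without any 1 library, at -1.47 to -1.12. The cause of its lost calls was not tested. The summed ratio moved to 0.233 after median-of-ratios scaling. Over all genes 1429 were lower and 5878 higher, against 3145 and 3129 after that scaling and 2557 and 3888 after quantile normalization. The deviations of same-numbered libraries had correlations from -0.331 to 0.358, and those of differently numbered libraries ran from -0.341 to 0.318. No pairing by number was seen, and these correlations are too few to exclude one. The replicate block gave 9 lower maltase genes, with Mal-A5 at -0.17 (adjusted p = 0.0498), and changed no other maltase call. The read numbers behind the low levels of Mal-A5 and the Mal-B genes are unknown, so their precision is known only from the spread between libraries.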

Other observations

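Several sugar transporter genes that did not pass the test varied between libraries of the same group far more than the Mal-A genes. CG15406 was at 16.9, 11.0, 12.5, 55.5 and 0.805 TPM in dHNF4 RNAi libraries, against 3.16, 4.37, 3.21, 29.3 and 38.7 TPM in controls. CG7882 was at 9.56, 4.77, 5.88, 41.3 and 0.589 TPM in dHNF4 RNAi libraries, against 1.24, 1.65, 1.27, 15.5 and 29.0 TPM in controls. Both were highest in dHNF4 RNAi replicate 4 and in control replicate 5, and both were lowest in dHNF4 RNAi replicate 5. Of 5 Malpighian tubule markers, Uro and Irk3 had their highest values in the same libraries, with Uro at 26.6 TPM in dHNF4 RNAi replicate 4 and 34.6 TPM in control replicate 5, and Irk3 at 18.8 TPM in dHNF4 RNAi replicate 4 and 17.2 TPM in control replicate 5. Irk2, Drip and tsh did not follow them. Irk2 was lowest of all libraries in control replicate 5, at 84.8 TPM, Drip was highest in control replicate 2, at 63.0 TPM, and tsh was lowest in dHNF4 RNAi replicate 4, at 1.57 TPM. The part of tubule tissue in these transporter values was not tested. These genes were chosen after their values were seen.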
